A study of Mus musculus with 24 samples.

Results

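The genes described here are the chemokines Cxcl1, Cxcl2, Cxcl3 and Cxcl5 and the chemokine receptors Cxcr1 and Cxcr2. They were taken as a family by symbol, with earlier results of these data known, and make up 6 of the 41388 mouse genes in the deposited count table. All 6 symbols matched 1 Ensembl identifier each, and all 24 hearts were used.

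Experimental autoimmune myocarditis (EAM) is a model in which a peptide of cardiac myosin triggers an immune attack on the heart. RNA was sequenced from a portion of each heart of wild type Balb/c male mice (BALB/cAnNCrl in the study's methods), immunized as young adults, at D10, D15 and D21 after immunization, with 4 EAM and 4 control hearts at each time point. EAM mice received the myosin heavy chain peptide in supplemented complete Freund's adjuvant (SCFA) on day 0 and again on day 7, with pertussis toxin on day 0. Control mice received PBS in place of the peptide, with the same SCFA and the same toxin, so that the comparison is of the peptide on top of a shared adjuvant and not of diseased with untouched mice. According to the study's methods, the myocardial samples were selected as far as possible for inflammation, because not every immunized mouse of this strain may develop EAM.

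Cxcl1, Cxcl2, Cxcl3 and Cxcl5 belong to the CXC chemokines that carry the Glu-Leu-Arg motif, a group of small secreted proteins that bind the G protein-coupled receptor CXCR2 and draw neutrophils out of blood and into tissue. CXCR2 is the main receptor of these ligands on mouse neutrophils, and CXCR1 is its close relative, which in the mouse is bound by a narrower set of ligands. Macrophages, endothelium, fibroblasts and neutrophils themselves can transcribe the ligands when interleukin-1, interleukin-17 or TNF reaches them, largely through NF-kappaB.

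The libraries held between 15814863 and 24980864 counted reads, with a median of 19469782. Levels are given as CPM, which puts all libraries on a shared scale after TMM normalization, and the 3 reads that a count of 0 allows correspond to between 0.1201 and 0.1897 CPM. Hearts carried the markers of heart muscle, since 7 cardiomyocyte genes summed to between 28100 and 34900 CPM in D10 control hearts, and this sum was between 7600 and 19700 CPM in D15 EAM hearts. The D10 EAM heart of replicate 1 stood apart from the other 3 D10 EAM hearts, with 15 neutrophil markers summing to 1080 CPM against 221 to 423 CPM. The 4 D21 EAM libraries carry another library code than the other 20, so that at D21 this code and EAM cannot be told apart. In whole tissue, fewer cells of a type and less RNA per cell cannot be told apart either.

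The 4 ligand genes lie on the + strand of chromosome 5 between bases 90759360 and 90905938 of GRCm38, a stretch of 146579 bases, in the order Cxcl5, Cxcl3, Cxcl1 and Cxcl2. The platelet chemokine genes Ppbp and Pf4 lie between Cxcl5 and Cxcl3, and Cxcl15, a chemokine known from lung, lies between Cxcl3 and Cxcl1. The receptor genes share a 40643-base stretch of chromosome 1, Cxcr2 on the + strand and Cxcr1 on the - strand. All 6 are protein coding, and no other gene of the GENCODE M21 annotation overlaps any of them. Cxcl2 and Cxcl3 resemble each other in sequence. Of the 75-base windows of their longest coding transcripts, 36 are identical between them, 2.02% of those of Cxcl2 and 3.82% of those of Cxcl3, and 2.25% of those of Cxcr2 and 1.13% of those of Cxcl5 occur in transcripts of other genes. Reads that mapped to more than 1 place were set aside in the study's counting, so reads from these stretches could be missing from the counts.

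RefSeq promoter windows, from 250 bases before to 50 bases after the transcript start on GRCm38.p6, were matched for 5 of the 6 genes, all but Cxcl5. The longest run of bases that the 250 bases before the start shared in Cxcl1, Cxcl2 and Cxcl3 was 11 bases long, GGGAATTTCCC, which has the form of the sequences bound by NF-kappaB. It was taken from these windows and then searched in all windows on both strands. It occurred once in each of the 3, in 14 of all 32851 windows (0.0426%), and not in the windows of Cxcr1 and Cxcr2. The 100 bases from 130 to 31 before each ligand start are printed here 5′ to 3′ on the + strand, with the shared run in capitals, to show what the promoters of 3 strongly induced ligands have in common. They span chr5:90891115-90891214 for Cxcl1, chr5:90903769-90903868 for Cxcl2 and chr5:90785971-90786070 for Cxcl3.
Cxcl1: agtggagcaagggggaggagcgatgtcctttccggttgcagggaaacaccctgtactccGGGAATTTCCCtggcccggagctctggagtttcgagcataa
Cxcl2: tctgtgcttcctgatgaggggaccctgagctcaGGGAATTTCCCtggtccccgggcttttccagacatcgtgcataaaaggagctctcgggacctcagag
Cxcl3: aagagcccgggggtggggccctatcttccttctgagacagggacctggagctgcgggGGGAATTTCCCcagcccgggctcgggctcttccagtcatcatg
The run began 71 bases before the start of Cxcl1, 97 before that of Cxcl2 and 73 before that of Cxcl3. A match describes these letters only, and binding was not measured.

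D15 was the time point at which the whole family was high. All 4 ligands and both receptors were above every control heart in every EAM heart at D15, and each was called induced. A call means an FDR, the Benjamini-Hochberg adjusted p of edgeR's quasi-likelihood test over all 15693 genes tested, under 0.01 together with a change of 2-fold or more. By the same limits 18.1% of all genes tested were induced at D15, and 34.6% did not overlap between the groups in this direction. Cxcl2, Cxcl3 and Cxcr1 had no D15 control heart with 10 reads and passed the low-count filter only through their EAM hearts, so a difference was built into their being tested and their number supports nothing by itself. Cxcl1, Cxcl5 and Cxcr2 had at least 10 reads in every heart at D15.

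**Figure D1:**
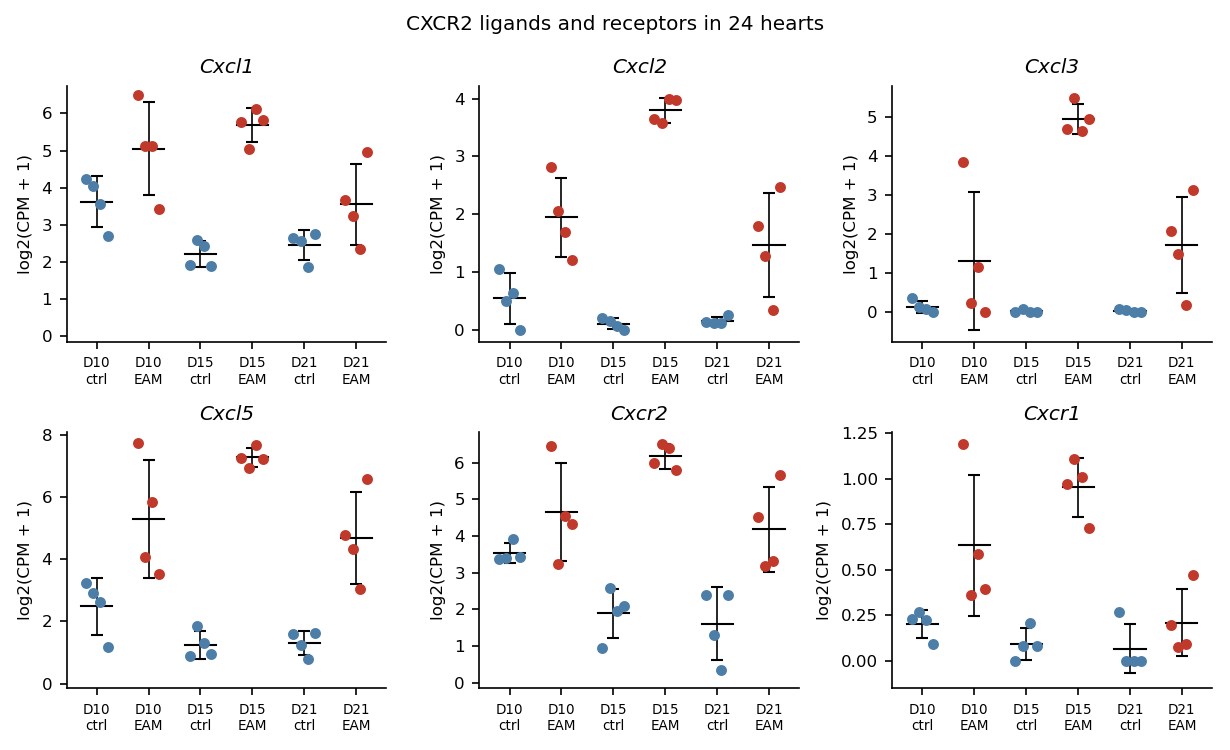
Each point is 1 heart, with log2(CPM + 1) on the vertical axis (the scale differs between panels) and the 6 groups on the horizontal axis, control in blue and EAM in red. Horizontal lines are group means and bars are 1 SD over 4 hearts. The 4 D15 EAM hearts lie above the D15 control hearts in all 6 panels, while the D10 and D21 EAM hearts are widely spread.

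Cxcl3 had the largest fitted change of the family. It was at 24.8, 44.1, 24.1 and 30.03 CPM in the 4 D15 EAM hearts, while a single read in 1 heart was all that the 4 D15 control libraries held. The gene was thus close to silent in control myocardium and abundant in every D15 EAM heart. Its fitted log2 fold change was 10.65 (SE 0.47, FDR 1.23e-07 by edgeR's quasi-likelihood test), the 3rd highest of the 15693 genes tested, but with 1 control read that size depends on the count added in the fit. The pooled reads gave a ratio of 2270, with a 95% interval of 407 to 89700 that covers counting error only.

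Cxcl2, a chemokine released early by stimulated macrophages, was also near silence in control hearts. It was at 11.4, 10.9, 15.0 and 14.7 CPM in D15 EAM hearts and had between 0 and 3 reads in the D15 control hearts. The 4 EAM hearts were close to each other, with a mean of 13.0 ± 2.11 CPM (SD, n = 4). The log2 fold change was 7.24 (SE 0.33, FDR 1.43e-07 by edgeR's quasi-likelihood test), from 6 control reads in all.

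Cxcl5 was the most abundant member in D15 EAM hearts, at 99.3 CPM per kb of exon against 55.0 for Cxcl1, 30.3 for Cxcl3 and 7.00 for Cxcl2. In D15 EAM hearts it was at 152, 122, 204 and 148 CPM, and in D15 control hearts at 0.834, 2.60, 1.45 and 0.943 CPM. The lowest EAM heart was far above the highest control heart, and the means of 156.4 ± 34.2 and 1.46 ± 0.808 CPM (SD, n = 4 each) gave a 107-fold difference. The log2 fold change was 6.79 (SE 0.31, FDR 1.39e-07 by edgeR's quasi-likelihood test).

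Cxcl1, the ligand with the highest level in control hearts, had the smallest fitted change of the 4 ligands at D15. It was at 53.8, 32.1, 68.8 and 55.2 CPM in D15 EAM hearts and at 2.81, 5.02, 4.35 and 2.71 CPM in D15 control hearts. The groups did not overlap, and the means differed 14.1-fold. The log2 fold change was 3.85 (SE 0.28, FDR 2.53e-06 by edgeR's quasi-likelihood test), which ranked 529th among all genes tested, against 56th for Cxcl2 and 70th for Cxcl5.

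Of the receptors, Cxcr2 was by far the more abundant transcript. It was at 62.3, 90.2, 83.3 and 54.2 CPM in D15 EAM hearts and at 0.938, 4.96, 2.85 and 3.24 CPM in D15 control hearts. The means of 72.5 ± 17.0 and 2.997 ± 1.65 CPM (SD, n = 4 each) differed 24.2-fold without overlap, with a log2 fold change of 4.65 (SE 0.36, FDR 3.81e-06 by edgeR's quasi-likelihood test). Cxcr1 had 23, 33, 24 and 17 reads in D15 EAM hearts and 0, 1, 3 and 1 reads in D15 control hearts. Its log2 fold change was 3.71 (SE 0.48, FDR 9.69e-05 by edgeR's quasi-likelihood test), at a level of 0.946 CPM in EAM. Per length, Cxcr2 was at 23.8 and Cxcr1 at 0.634 CPM per kb in D15 EAM hearts.

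The neutrophil markers were also higher in D15 EAM than in D15 control hearts. The summed level of the 15 markers was between 828 and 1560 CPM in D15 EAM hearts and between 23.8 and 103 CPM in D15 control hearts, and all 15 were induced. Within the D15 EAM group the members did not all follow this sum. It was highest in replicate 2, where Cxcl3, Cxcr1 and Cxcr2 were highest and Cxcl1, Cxcl2 and Cxcl5 lowest. The monocyte and macrophage sum, of 11 markers, was between 3920 and 5600 CPM against 643 to 749 CPM, and the T cell sum between 52.3 and 76.0 CPM against 2.47 to 3.72 CPM. Fibroblast markers summed to between 3140 and 6450 CPM against 1260 to 1460 CPM, endothelial markers to between 628 and 700 CPM against 922 to 1200 CPM, and eosinophil markers to between 2.59 and 6.03 CPM against 0.0591 to 0.177 CPM, with Epx at 0 in control hearts. The fibroblast sum rested on the collagen gene Col1a1, at a mean of 3953 CPM against 186 CPM, which was the only 1 of the 5 fibroblast markers called. Dcn was at 1020 against 930 CPM, Lum at 243 against 171 CPM, Pdgfra at 146 against 90.6 CPM and Tcf21 at 12.01 against 15.9 CPM. The median log2 fold change of the 5 was 0.54. All 11 monocyte and macrophage markers and all 7 T cell markers were called, Cd8a of the latter with no control heart at 10 reads, and 1 of 5 endothelial markers was called lower. Cardiomyocyte markers were lower, 4 of 7 of them called, between 7600 and 19700 CPM against 28200 to 32800 CPM. The share of reads on mitochondrial genes was between 3.19% and 4.31% in D15 EAM hearts and between 6.10% and 7.14% in D15 controls. The part of these changes in the chemokine result was not tested.

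**Figure D2:**
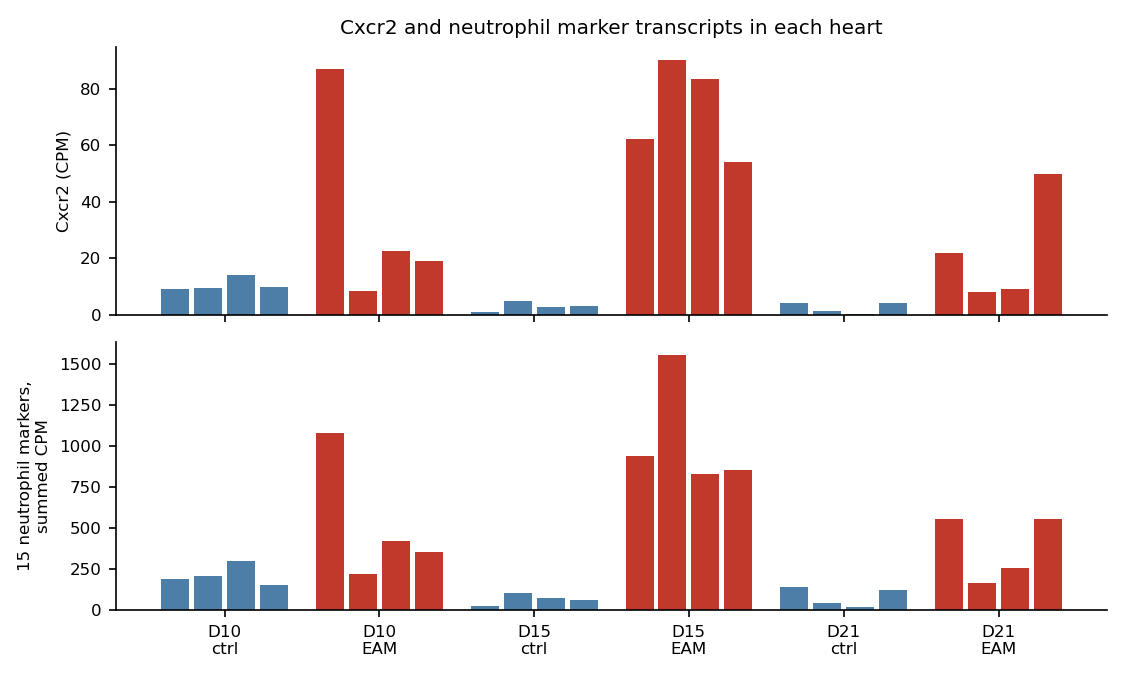
Bars give Cxcr2 in CPM (top) and the summed CPM of the 15 neutrophil markers (bottom) in each of the 24 hearts, control in blue and EAM in red, both axes starting at 0. The 4 D15 EAM hearts and the D10 EAM heart of replicate 1 are the highest in both panels, and D21 EAM replicate 4, at 50.01 CPM of Cxcr2, had nearly the same marker sum as replicate 1, at 22.0 CPM.

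At D10 no member passed the limits. The EAM means were above the control means for all 6 genes, but 1 heart carried much of the difference. Of the 4 members tested 0 were called by edgeR's quasi-likelihood test, and 0.0% of the 15029 genes tested were called. The edgeR likelihood ratio test, DESeq2 and limma-voom also called 0 of the 4, where they called 0.299%, 0.319% and 0.0% of all genes as induced. All 4 had an unadjusted p under 0.05 in the quasi-likelihood test, as did 9.71% of all genes tested in this direction. Cxcl3 and Cxcr1 did not pass the low-count filter.

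Cxcl5 was at 211, 15.8, 56.8 and 10.4 CPM in D10 EAM hearts and at 8.45, 6.51, 5.17 and 1.26 CPM in D10 control hearts. The groups did not overlap, but the EAM hearts spanned a wide range with replicate 1 on top. The log2 fold change was 3.76 (SE 0.9997, FDR 0.328 by edgeR's quasi-likelihood test) and 2.34 without that heart. Cxcl2 was at 6.06, 3.17, 2.23 and 1.32 CPM in D10 EAM hearts and at 1.08, 0.410, 0.562 and 0 CPM in D10 control hearts, again without overlap. Its log2 fold change was 2.59 (SE 0.71, FDR 0.328) and 2.06 without replicate 1. Cxcl2 and Cxcl5 were 2 of the 4 tested members without overlap, against 4.41% of all genes tested. Cxcl2 had at least 10 reads in all 4 EAM hearts but in only 2 of the 4 control hearts.

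Cxcl1 and Cxcr2 overlapped between the groups at D10. Cxcl1 was at 89.9, 34.1, 34.1 and 9.82 CPM in EAM hearts and at 17.7, 15.4, 10.7 and 5.49 CPM in control hearts, with EAM replicate 4 inside the control range. Cxcr2 was at 87.0, 8.50, 22.5 and 19.3 CPM in EAM hearts and at 9.37, 9.53, 14.2 and 9.79 CPM in control hearts, with EAM replicate 2 below every control heart. The 3.20-fold difference in mean Cxcr2 became 1.56-fold without replicate 1, and the log2 fold change went from 1.67 (SE 0.63) to 0.63. For Cxcl1 it went from 1.75 (SE 0.60) to 1.05, both with an FDR of 0.328 in the full set by edgeR's quasi-likelihood test.

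Cxcl3 showed the dependence on 1 heart most plainly at D10. Its reads in the 4 EAM hearts were 303, 3, 22 and 0, and in the 4 control hearts 5, 2, 1 and 0. Replicates 2 and 4 were within the control range, and the 33.3-fold difference in means became 4.19-fold without replicate 1. Cxcr1 had 29, 5, 9 and 6 reads in EAM and 3, 4, 3 and 1 in control hearts, low counts that nevertheless did not overlap in CPM. Replicate 1 also had the highest T cell marker sum at D10, 34.1 CPM against a median of 8.12 CPM over the 4 EAM hearts, and the lowest cardiomyocyte sum, 17700 CPM. Its monocyte and macrophage sum was the highest at D10 as well, 3414 CPM against 1114 to 1913 CPM in the other EAM hearts. The part of these in the D10 values was not tested.

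At D21 the EAM means were below those of D15 for all 6 genes, and the EAM hearts were widely spread. Cxcl5 was the only member called, 1 of the 3 tested, where 4.13% of all 15266 genes tested were induced. It was at 26.7, 19.0, 7.22 and 94.4 CPM in D21 EAM hearts and at 2.03, 1.34, 0.744 and 2.10 CPM in D21 control hearts. The groups did not overlap, and the means of 36.8 ± 39.2 and 1.56 ± 0.640 CPM (SD, n = 4 each) differed 23.7-fold. The log2 fold change was 4.62 (SE 0.83, FDR 0.00774 by edgeR's quasi-likelihood test). Leaving out any 1 of the 4 control hearts, or EAM replicate 1 or 2, ended this call, at an FDR of 0.0119 to 0.0313, and with limma-voom at an FDR of 0.0302, while the log2 fold change with 1 heart left out stayed between 3.54 and 4.93. This loss was not particular to Cxcl5, and the fits with 1 heart left out also had a looser low-count filter. Over all genes, the 630 induced at D21 became 0 without control replicate 1, 2 or 3, 2 without control replicate 4, 11 and 42 without EAM replicates 1 and 2, and 80 with limma-voom, and they became 1702 without EAM replicate 3 and 390 without EAM replicate 4.

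Cxcr2 came near the limit at D21. It was at 22.0, 8.12, 9.03 and 50.01 CPM in EAM hearts and at 4.27, 1.49, 0.263 and 4.25 CPM in control hearts, again without overlap. Cxcl5 and Cxcr2 were 2 of 3 tested members without overlap, against 17.8% of all genes tested. The log2 fold change was 3.17 (SE 0.85, FDR 0.0242 by edgeR's quasi-likelihood test). When the replicate number was added as a block, the estimate was 3.18 with an FDR of 0.00615, past the limits. Nothing shows that this number marks pairs of hearts. Cxcr2 also passed them by DESeq2 and by the edgeR likelihood ratio test, at FDRs of 0.000421 and 0.00183, and without EAM replicate 3 at 0.00947.

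Cxcl1 was at 11.6, 8.50, 4.08 and 30.1 CPM in D21 EAM hearts and at 5.29, 4.90, 2.63 and 5.69 CPM in control hearts. Replicate 3 of the EAM group lay within the control range, and the log2 fold change of 1.60 (SE 0.57) had an FDR of 0.0599 by edgeR's quasi-likelihood test. Cxcl2, Cxcl3 and Cxcr1 were too low at D21 to pass the filter. Cxcl2 had 50, 26, 4 and 82 reads in EAM hearts and 2, 2, 2 and 4 in control hearts, and Cxcl3 had 65, 33, 2 and 141 against 1, 1, 0 and 0. For both, EAM replicate 3 was nearest to the control hearts and replicate 4 the highest. Pooled reads of Cxcl3 gave a ratio of 139, with a 95% interval of 38.1 to 1160 for counting error only. Cxcr1 had 3, 1, 1 and 7 reads in EAM and 4, 0, 0 and 0 in control hearts, a difference that was not detectable at this depth.

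All 4 ligands were highest in EAM replicate 4 and lowest in EAM replicate 3 at D21. Replicate 3 also had the lowest T cell marker sum of the D21 EAM hearts, 20.1 CPM, though this was above the 3.51 to 4.51 CPM of D21 control hearts, and the other EAM hearts reached 79.7 CPM. The cardiomyocyte sum was 16900, 23430, 32300 and 13630 CPM in D21 EAM replicates 1 to 4, so that replicate 3 lay above and the others below the D21 control range of 29100 to 31500 CPM. Monocyte and macrophage markers summed to between 1530 and 5070 CPM in D21 EAM and between 576 and 924 CPM in D21 control hearts, and fibroblast markers to between 2250 and 5270 CPM against 1340 to 1680 CPM. The fibroblast sum again rested on Col1a1, at a mean of 2282 against 255 CPM, the only 1 of the 5 called, and the median log2 fold change of the 5 was 0.09. Endothelial markers were at 651 to 1060 CPM against 1130 to 1340 CPM. The neutrophil sum did not follow this order. It was 556, 166, 255 and 558 CPM in D21 EAM replicates 1 to 4, lowest in replicate 2 and nearly equal in replicates 1 and 4, and between 16.7 and 140 CPM in D21 control hearts, and 3 of the 14 tested neutrophil markers were called. The part of these in the D21 values was not tested.

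**Figure D3:**
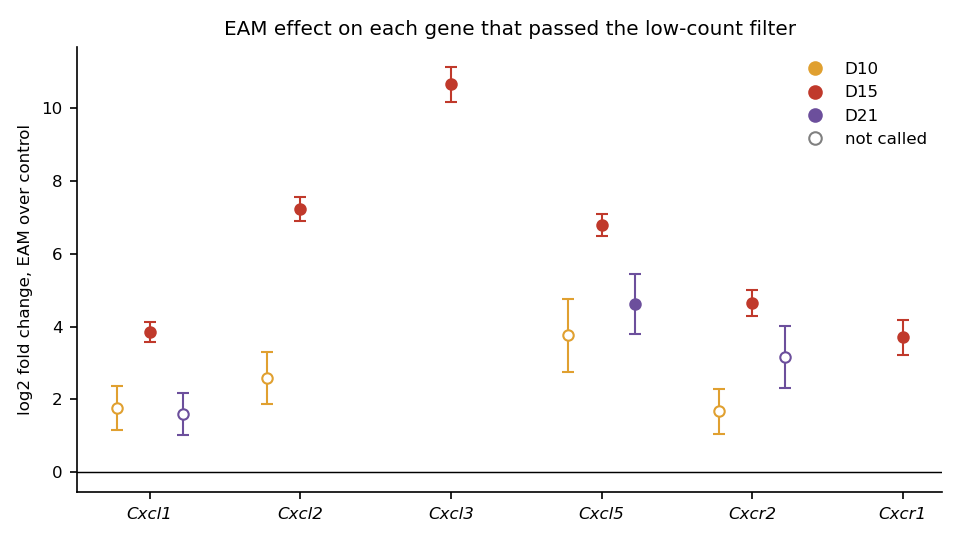
Points give the fitted log2 fold change of EAM over control and bars its standard error, at D10 (orange), D15 (red) and D21 (purple), for each gene that passed the low-count filter at that time point. Filled points were called, at an FDR under 0.01 and a change of 2-fold or more. All 6 D15 points are filled, from 3.71 for Cxcr1 to 10.65 for Cxcl3, and of the others only Cxcl5 at D21 is, at 4.62.

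Whether the EAM effect changed with time was tested as a difference of differences in a fit of all 24 hearts. Between D15 and D10, Cxcl2 was the 1 of 6 members called, where 12.7% of 16318 genes were called. In this fit Cxcl3 and Cxcr1 had 10 reads in no control heart and Cxcl2 in 2 of 12, so these members were tested only through their EAM hearts. The EAM effect on Cxcl2 was larger at D15 by 4.59 on the log2 scale (SE 1.14, FDR 0.00408 by edgeR's quasi-likelihood test). The differences for Cxcl1, Cxcl5 and Cxcr2 were 2.05 (SE 0.78), 2.98 (SE 1.19) and 2.92 (SE 0.97), with FDRs of 0.0378, 0.0458 and 0.0189. For Cxcl3 the difference of 5.60 had an SE of 3.44. Without the D10 EAM heart of replicate 1, 5 of the 6 were called, all but Cxcr1, and the share of all genes called rose as well, to 22.3%. Without the D10 control heart of replicate 1 none was, Cxcl2 then having an FDR of 0.018, where 8.49% of all genes were called, and limma-voom called none of the 6 and 12.4% of all genes.

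Between D21 and D15, 0 of 6 members were called by edgeR's quasi-likelihood test, where 3.66% of genes were, and 0 by DESeq2, limma-voom or the edgeR likelihood ratio test. At an unadjusted p under 0.05 there were 2 of 6, against 40.7% of all genes. The estimates were all below 0, from -1.47 (SE 1.0044) for Cxcr2 to -3.83 (SE 5.38) for Cxcl3. Cxcl1 came nearest, at -2.25 (SE 0.80, FDR 0.0417), and was called only when the D21 EAM heart of replicate 4 was left out. Both comparisons use the same D15 hearts. In rank order of the group means, D15 EAM was highest for every member, followed by D10 EAM and D21 EAM. The order of D10 and D21 EAM rested on the D10 EAM heart of replicate 1 for 3 members. Without it the D10 EAM mean was 0.465 CPM for Cxcl3, 27.7 CPM for Cxcl5 and 16.8 CPM for Cxcr2, below the D21 EAM means of 3.23, 36.8 and 22.3 CPM. Hearts of D10 and D21 EAM overlapped for all 6, and hearts of D15 and D10 EAM did not overlap for Cxcl2 and Cxcl3, 2 of the 6, as for 21.5% of all genes in this direction.

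The ligands did not change in proportion to each other. Their makeup was compared per length, as the share of each in the summed CPM per kb of exon of the 4 ligand transcripts. In control hearts Cxcl1 was most of it, with means of 79.2%, 80.8% and 82.2% at D10, D15 and D21, and Cxcl5 nearly all the rest, between 16.3% and 19.0%. In D15 EAM hearts Cxcl5 was 51.5% ± 3.20, Cxcl1 28.3% ± 4.88, Cxcl3 16.5% ± 7.38 and Cxcl2 3.66% ± 0.359 (SD, n = 4). D21 EAM hearts held 52.7% ± 4.19 of Cxcl5 and 38.0% ± 6.54 of Cxcl1. The D10 EAM hearts were spread, with means of 40.5% ± 14.8 of Cxcl5 and 55.1% ± 15.6 of Cxcl1. Replicate 2, with 21.0% of Cxcl5 and 75.03% of Cxcl1, lay within the control ranges, and replicate 1, with 54.7% of Cxcl5, above the D15 and D21 EAM means. D21 EAM replicate 3, whose Cxcl1 level was within the control range, still had 50.2% of Cxcl5.

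**Figure D4:**
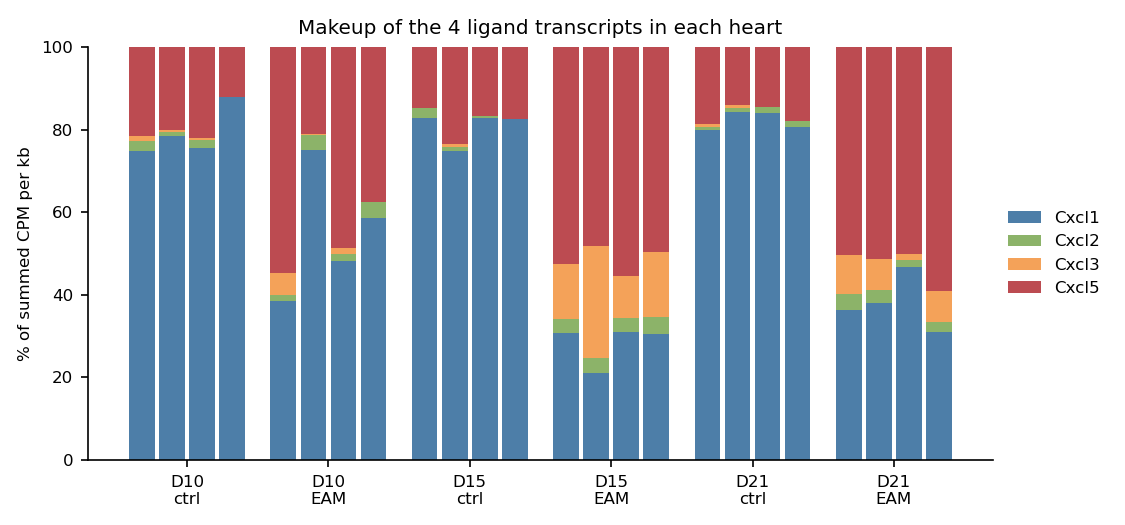
Each bar is 1 heart and shows the share of Cxcl1, Cxcl2, Cxcl3 and Cxcl5 in their summed CPM per kb, in percent, grouped by time point and treatment. Cxcl1 is between 74.8% and 87.8% of every control bar, and Cxcl5 is between 48.2% and 59.0% of every D15 and D21 EAM bar.

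The ratio of 2 ligands within a library needs no scaling between libraries, and it was compared between EAM and control hearts by an exact two-sided permutation test on log2 ratios of reads. Of 10 comparisons, those where both ligands passed the filter, 7 had groups that did not overlap, with the smallest p that 4 against 4 hearts can give, 0.0286, and an adjusted p of 0.0408. With log2 ratios of CPM + 1, 0 of the 10 passed, at a lowest adjusted p of 0.0571 in the exact permutation test. Of the 7, 4 are D15 ratios with Cxcl2 or Cxcl3, which were tested only through their EAM hearts, so a difference was built into them and they support nothing. Another is that of Cxcl1 to Cxcl2 at D10, where 1 control heart had 0 reads of Cxcl2. The remaining 2 are the ratios of Cxcl1 to Cxcl5 at D15 and D21, genes with at least 16 reads in every heart of those days. The adjusted p of 0.0408 rests on 7 of the 10 sharing the smallest p. When only ligands with at least 10 reads in every heart of the day were compared, an alternative added with the values known, 3 comparisons remained, all of Cxcl1 to Cxcl5, and the adjusted p at D15 and D21 was 0.0429 by the exact permutation test. The log2 ratio of Cxcl1 to Cxcl5 was -1.60 ± 0.221 in D15 EAM and 1.43 ± 0.340 in D15 control hearts. At D21 it was -1.21 ± 0.339 against 1.61 ± 0.246, and both differences passed on the scale of reads. At D10 it was -0.23 ± 1.01 against 1.36 ± 0.498 with overlap, and the exact permutation p of 0.0857 (adjusted 0.1071) did not pass.

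The ratio of Cxcl2 to Cxcl5 overlapped between the groups at both time points tested. The log2 ratio of Cxcl2 to Cxcl5 was -3.58 ± 0.205 in D15 EAM and -3.92 ± 1.19 in D15 control hearts, with overlap and an exact permutation p of 0.5714. At D10 it was -3.76 ± 1.34 against -3.82 ± 1.07, with an exact permutation p of 0.9143. Control values of Cxcl2 rest on 6 reads at D15 and 37 at D10, and these tests do not show that the ratios were equal. With 1 read of Cxcl3 in all 4 D15 control hearts, its control ratios are set by the 0.5 reads added, and no size is given for them.

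Control hearts differed in mean level between the time points, but no member passed the limits. Cxcl1 was at 12.3 ± 5.41 CPM in D10, 3.72 ± 1.14 in D15 and 4.63 ± 1.37 in D21 control hearts (SD, n = 4 each). Cxcl5 was at 5.35 ± 3.04, 1.46 ± 0.808 and 1.56 ± 0.640 CPM, and Cxcr2 at 10.7 ± 2.33, 2.997 ± 1.65 and 2.57 ± 2.02 CPM. Each was thus highest at D10. All D15 control hearts were below all D10 control hearts for 2 of the 3, Cxcl1 and Cxcr2, as for 5.62% of genes tested, and all D21 control hearts for 1 of the 3, Cxcr2, as for 7.73%. Of the 3 members tested 0 were called between D15 and D10 controls by edgeR's quasi-likelihood test, where 0.0718% of 15311 genes were, and 0 between D21 and D10, where 0.96% were.

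All 3 were lower at an unadjusted p under 0.05 in both comparisons, against 8.37% and 13.3% of genes in this direction. The log2 differences from D10 were -1.72 (SE 0.33, FDR 0.0281) for Cxcl1, -1.88 (SE 0.49, FDR 0.0682) for Cxcl5 and -1.84 (SE 0.52, FDR 0.0854) for Cxcr2 at D15. At D21 they were -1.43 (SE 0.32, FDR 0.0161), -1.80 (SE 0.48, FDR 0.0298) and -2.08 (SE 0.52, FDR 0.0237). DESeq2 called 2 of the 3, Cxcl1 and Cxcl5, in each comparison, where it called 0.921% and 1.67% of all genes. The edgeR likelihood ratio test called 1 and 3 of the 3, where it called 1.18% and 1.92%, and limma-voom 0 in both, where it called 0.0% and 0.477%. The 2 comparisons share the D10 controls. Without the D10 control heart of replicate 4, which was the lowest for Cxcl1 and Cxcl5, 2 of the 3 were called in each, where 0.329% and 0.71% of all genes were.

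The neutrophil marker sum of control hearts was also highest at D10, between 150 and 298 CPM, against 23.8 to 103 CPM at D15 and 16.7 to 140 CPM at D21. Monocyte and macrophage markers summed to between 704 and 1440 CPM in D10, 643 and 749 CPM in D15 and 576 and 924 CPM in D21 controls. Markers of platelets and megakaryocytes summed to between 25.9 and 74.7 CPM in D10 controls and to between 5.65 and 9.48 CPM in D15 and D21 controls. The part of these in the control levels was not tested.

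The genes that surround the chemokines in their pathway are taken from lists of fixed membership and are described by counts, beside the median log2 fold change of all genes tested, which was between -0.01 and 0.02 at the 3 time points. At D10 no gene of any list was called, as no gene of the whole table was. A higher EAM level with p under 0.05 before adjustment, which 9.71% of all genes had, was seen at D10 in 5 of 5 tested cytokines, 3 of 6 of their receptors, 6 of 10 NF-kappaB and stability regulators and 7 of 13 signalling genes. It was seen in 3 of 3 granulocyte factors and receptors, 3 of 4 proteases, 7 of 8 adhesion genes, 1 of 2 atypical receptors and 0 of 2 other CXC ligands. These 35 of 53 genes became 12 without D10 control replicate 4, 20 and 23 without control replicates 2 and 3, 21 without EAM replicate 1 and 10 with limma-voom, where 4.33%, 5.51%, 5.67%, 6.19% and 5.78% of all genes remained at this p. Counts of induced genes in the lists stand beside 18.1% of all genes at D15 and 4.13% at D21. The D21 counts of every list have the limit given above for all genes, and the 17 of 53 list genes induced at D21 became 0 without any 1 of the 4 control hearts or without EAM replicate 1, 1 without EAM replicate 2 or with limma-voom, 34 without EAM replicate 3 and 11 without EAM replicate 4.

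Of 7 cytokines that induce the ligands, 6 were tested at D15 and all 6 were induced. Il1a, Il6 and Il17a had no D15 control heart with 10 reads and were tested only through their EAM hearts, which built a difference into them. The other 3 had a median log2 fold change of 4.14. Il1b, the secreted form of interleukin-1 best known from macrophages, went from 2.50 to 151 CPM in mean, a log2 fold change of 5.95 (SE 0.21, FDR 2.72e-08). Il6 and Il1a had log2 fold changes of 7.60 (SE 0.43) and 8.03 (SE 0.27), and Tnf one of 3.09 (SE 0.17), all past the limits by edgeR's quasi-likelihood test. At D21, 2 of 5 tested were induced, Il1b at 4.04 and Il1a at 4.67, the latter again with no control heart at 10 reads. Il17a, the T cell cytokine that drives these ligands in stromal cells, was named after its values were seen. It averaged 1.07 CPM in D15 EAM and had 0 reads in D15 control hearts.

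Of 6 receptors of these cytokines, 5 were induced at D15 with a median of 1.92 over the 6, and 1 at D21. Tnfrsf1b, a TNF receptor of leukocytes, rose by 3.08 (SE 0.13) at D15 and 2.06 (SE 0.35) at D21 on the log2 scale. Il17ra rose by 3.40 (SE 0.07), Il1r1 by 1.80 (SE 0.09) and Tnfrsf1a by 1.60 (SE 0.06) at D15. Of 10 regulators of NF-kappaB and of chemokine mRNA stability, 8 were induced at D15 with a median of 1.14. At D21, 0 were called by edgeR's quasi-likelihood test and 4 of the 10 had a higher EAM level with p under 0.05 before adjustment, against 25.2% of all genes tested. The lowest FDR of this list at D21 was that of Rel, an NF-kappaB subunit named after its values were seen, which was lower in EAM at -0.72 (SE 0.11, FDR 0.00633), under the 2-fold limit. Nfkb1, a subunit of NF-kappaB, rose by 1.04 (SE 0.07), Nfkb2 by 1.14 (SE 0.10) and its inhibitor Nfkbia by 1.14 (SE 0.22) at D15, while Rela was at 0.62 (SE 0.07), under the 2-fold limit. The D15 changes of these named genes were smaller than those of the ligands, of which the smallest was 3.85 for Cxcl1. The largest D15 change of the list was 2.48, for Tnfaip3, also named after its values were seen. NF-kappaB activity was not measured.

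Of 13 genes that carry the signal below CXCR2, 10 were induced at D15 and 7 at D21, with medians of 2.71 and 1.80 over the 13. Rac2, a small GTPase of blood cells that neutrophils need in order to migrate, rose by 3.75 (SE 0.11, FDR 1.4e-08) at D15 and 2.56 (SE 0.41, FDR 0.00642) at D21. Prex1, which activates Rac, rose by 2.28 (SE 0.11) at D15. The widely expressed G protein subunits Gnai2 and Gnb1 were at 0.81 (SE 0.08) and 0.60 (SE 0.07), under the 2-fold limit. Of 8 adhesion genes of neutrophil recruitment, 7 were induced at D15 and 3 at D21. The integrin chains Itgb2 and Itgam had log2 fold changes of 5.30 (SE 0.19) and 4.95 (SE 0.23) at D15, Selplg, the selectin ligand of leukocytes, 3.88 (SE 0.14), and Icam1, which endothelium presents to those integrins, 2.24 (SE 0.16). At D21, Itgb2, Itgam and Selplg were called and Icam1, at 0.99 (SE 0.34), was not.

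All 5 factors and receptors of granulocyte production and survival were tested at D15 and all 5 were induced, and 3 of 3 tested were induced at D21. Csf3 and Csf2 had no D15 control heart with 10 reads, so that a difference was built into their test, and the median over the other 3 was 4.45. Csf3r, the receptor of the growth factor G-CSF on neutrophils, rose by 4.45 (SE 0.26) at D15 and 2.96 (SE 0.55) at D21. Csf2rb and Csf2ra, the chains of the GM-CSF receptor, rose by 5.66 (SE 0.15) and 3.27 (SE 0.16) at D15. Csf3, which encodes G-CSF, averaged 5.20 CPM in D15 EAM hearts and had 0 reads in D15 and D21 control hearts. Of 6 proteases that cut chemokines, 5 were tested at D15 and all 5 were induced, of which Elane and Prtn3 had no control heart with 10 reads. Csf2 and Elane were named after their values were seen. At D21, 1 of 4 tested was induced. Mmp12, a macrophage elastase, was the most abundant, with a mean of 426 CPM in D15 EAM and 131 CPM in D21 EAM hearts and log2 fold changes of 7.24 (SE 0.87) and 6.52 (SE 0.92). Mmp9, Mmp8 and Prtn3, neutrophil granule enzymes, had log2 fold changes of 4.98 (SE 0.31), 5.17 (SE 0.52) and 4.96 (SE 0.51) at D15.

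Of the remaining CXC ligands 1 of 2 tested was induced at D15, and of the atypical receptors 1 of 2. Pf4, a chemokine of platelet granules, rose by 1.59 (SE 0.22, FDR 0.000121) at D15, and Ppbp, its neighbour on chromosome 5 and itself a source of CXCR2 ligands, was at 1.85 (SE 0.56) with an FDR of 0.0134 by edgeR's quasi-likelihood test, outside the limits. Cxcl15 had 6 reads over all 24 hearts. Mthfd2l, the next protein-coding gene beyond Cxcl2, was at -0.25 (SE 0.13). Ackr1, a scavenging receptor on venules and red blood cells that binds CXC and CC chemokines, rose by 2.52 (SE 0.29, FDR 4.53e-05) at D15 and was at 1.55 (SE 0.38) at D21 with an FDR of 0.0188. Ackr2, which takes up CC chemokines, was at 0.06 (SE 0.17) at D15.

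**Figure D5:**
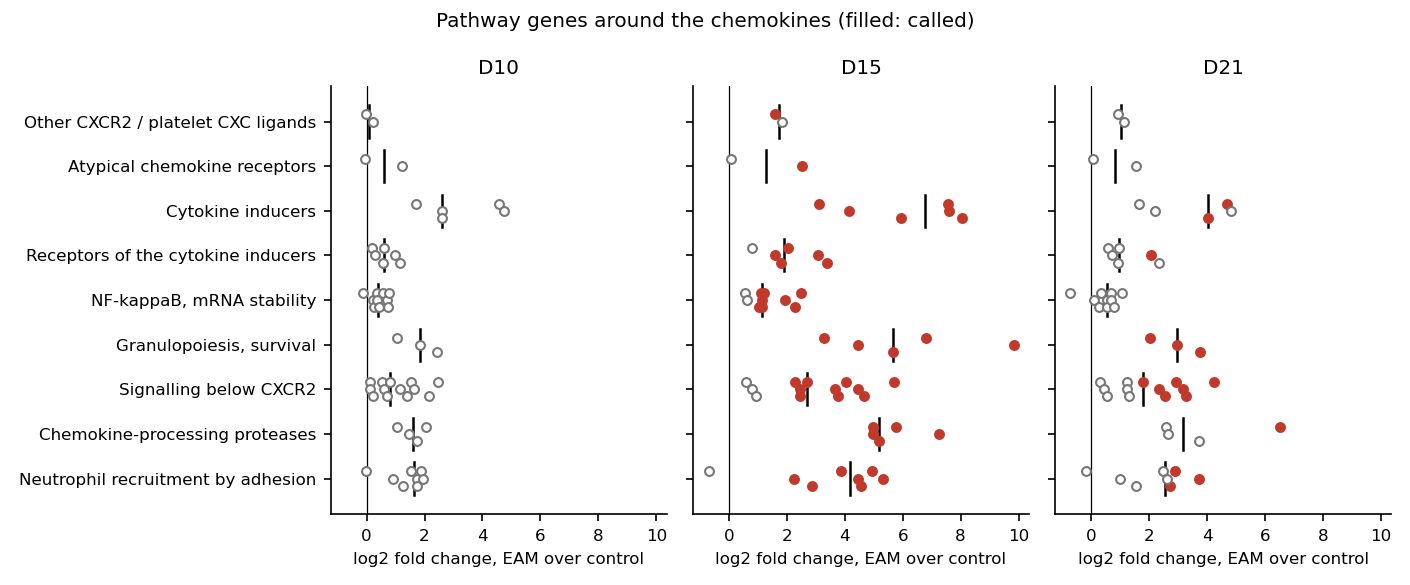
Each point is 1 tested gene of a pathway list, placed by its log2 fold change of EAM over control at D10, D15 or D21 on a shared horizontal axis, and black ticks are list medians. Filled points were called, at an FDR under 0.01 and a change of 2-fold or more. No point is filled at D10, 6 of 6 cytokine inducers are filled at D15, 3 of them tested only through their EAM hearts, and the NF-kappaB list has 8 of 10 filled at D15 and none at D21.

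For each member, the genes with the most similar course over the 12 EAM hearts were found by the root mean square distance of log2(CPM + 1) after subtracting the mean of the control hearts of the same day, among 16317 other genes. This is a description over hearts that share groups, and a low distance requires a change of similar size on this scale. The added 1 shrinks changes that start from levels near 0. Cxcl1 and Cxcl2 were among each other's 3 nearest genes, at a distance of 0.418. Their fitted log2 fold changes at D15 were not alike, at 3.85 for Cxcl1 and 7.24 for Cxcl2. The nearest gene to Cxcl1 was Ccl7, a monocyte-attracting chemokine, at 0.407, and Rnd1 was also among its 3 nearest, at 0.468. The nearest gene to Cxcl2 was Egr2, a zinc finger transcription factor, at 0.347, followed by Cxcl1 and Ccl7, the latter at 0.423. The median distance of all genes from Cxcl1 was 2.45.

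Cxcl3 was nearest to Il1f9, an interleukin-1 family cytokine, at 0.451, then to Ms4a8a at 0.498 and Trem1, an activating receptor of myeloid cells, at 0.519. Cxcl5 was nearest to Cxcl10 and Cxcl11, which are ligands of CXCR3 on T cells and not of CXCR2, at 0.476 and 0.549, and to Clec4e, a receptor of macrophages and neutrophils for microbial lipids, at 0.592. Cxcr2 was nearest to Csf3r, at 0.245 against a median distance of 3.12 over all genes, followed by Gm49339 at 0.354 and Cytip at 0.373. Cxcr1 changed by little on this scale, since it stayed near 1 CPM or below, and its nearest genes, Car5b, Tmem243 and Rufy4, lay at 0.134 to 0.145, where the median distance of all genes was 0.748. Among the members themselves Cxcl1 and Cxcl2 were the closest pair on this scale, and Cxcl5 and Cxcr1 the farthest apart, at 3.91.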

How the data were processed

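RNA sequencing counts of 24 hearts were used as the authors deposited them. The authors aligned 75-base read pairs to GRCm38 with HISAT2 2.0.4, removed duplicates with Picard, and counted reads per Ensembl gene with featureCounts, and the counts are not normalized. The sources used here do not give whether the counting used strand. Removing duplicates can lower the counts of very abundant transcripts. The table of all samples and the single tables differed in 0 cells, no reads fell on 92 spike-in controls, and no hearts of a group were duplicates (lowest chi-square per degree of freedom between them 5.455). Symbols came from GENCODE M21, promoter sequences from RefSeq.

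Samples were grouped by their labels. A gene was kept where 4 or more samples of a fit had 10 or more reads. In fits that left out 1 heart, the number of samples required fell to the size of the smallest group. Counts were TMM-normalized and tested with edgeR's quasi-likelihood test (edgeR 4.0.16, R 4.3.3). Genes were called at a Benjamini-Hochberg FDR under 0.01 with at least a 2-fold change, the limits of the study. The form of that test is the default of this version. EAM was compared with control within each time point, differences between time points in a fit of all 24 hearts, and control hearts in a fit of 12. Ligand ratios, with 0.5 reads added, were tested by an exact permutation test with a threshold of 0.05. Alternatives used DESeq2 1.42.0, limma 3.58.1, other scalings, filters, samples and limits, and leaving out each heart. The newer form of the quasi-likelihood test and the restriction of ratios to well-counted ligands were added after the data were seen. Steps were tested on simulated data. Values were tabulated with pandas 2.3.3 in Python 3.11.15.

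The members and gene lists were chosen with earlier results of these data known. Named list genes are the 4 of highest mean CPM in a list, unless said otherwise. No label gives the meaning of the replicate number, or whether hearts of a group came from separate cages or days, so p-values measure the spread between these samples. At D21 the deviations of same-numbered EAM and control hearts from their group means correlated at 0.107 to 0.319 in all 4 pairs. Correlations between hearts of different numbers were not computed, so these values do not show that the numbers mark pairs. Only 2 of 4 pairs were over 0.1 at D10, and 0 of 4 at D15. Tests keep hearts unpaired, and blocked values are given where they change a call. Floors and ratio intervals cover counting error only, since reads are not independent molecules.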

Additional observations from a re-analysis of the deposited data

Results flagged for a closer look

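In 5 of 36 groups of 4 hearts, 1 heart lay apart from the other 3 by Dixon's criterion at the 95% level. Chance gives this in about 1 of 20 groups for independent, normally spread values. Groups with counts near 0, and genes measured in the same hearts, are not such values, so that rate need not hold here. Cxcl3 in the D10 EAM heart of replicate 1 was at 13.4 CPM, where the other 3 hearts were between 0 and 1.23 CPM. This is the heart with the highest neutrophil, monocyte and macrophage, eosinophil and T cell marker sums at D10, and the part of these was not tested. Cxcr2 in the D10 control heart of replicate 3 was at 14.2 CPM, against 9.37 to 9.79 CPM in the others. That heart also had the highest sums of neutrophil markers, 298 CPM, and of platelet markers, 74.7 CPM, in its group. The other 3 rest on 1 to 4 reads. They are Cxcl2 at 0.205 CPM in the D21 control heart of replicate 4, Cxcl3 at 0.0591 CPM in the D15 control heart of replicate 2, and Cxcr1 at 0.203 CPM in the D21 control heart of replicate 1, where the other hearts had at most 2 reads.

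The EAM effect on Cxcl2 differed between D15 and D10 by 4.59 on the log2 scale (FDR 0.00408 by edgeR's quasi-likelihood test of the difference), the control hearts having 6 reads in all at D15 and 37 at D10. Cxcl2 entered this fit through its EAM hearts, with 10 reads in 2 of 12 control hearts, and the call ended with limma-voom, at an FDR of 0.03, and without the D10 control heart of replicate 1, at 0.018.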

How the results depend on the processing

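The 6 members were called at D15 under all 19 alternatives. Of 108 single log2 fold changes of members under alternatives at D15, all 108 kept their direction and call, from 2.98 for Cxcl1 to 12.46 for Cxcl3. Cxcl2, Cxcl3 and Cxcr1 passed the low-count filter only through their EAM hearts, so their part in these counts supports nothing by itself. With both limits kept, 12.3% (no filter) to 20.4% (total counts in place of TMM) of all genes were induced at D15. At D10, where 0 members were called, all 12 control hearts in place of the 4 of the day gave 4, where 4.07% of all genes were induced in place of 0, and this adds the lower D15 and D21 controls. At D21, where 1 member was called, DESeq2, the edgeR likelihood ratio test and the replicate block each gave 2 and limma-voom 0. Of all genes, these induced 8.93%, 8.88%, 3.94% and 0.524%, against 4.13% in the main fit. No filter on low counts and all 12 control hearts gave 3 each, and all 24 samples in the fit 4. These settings tested more members, and 3.54%, 10.1% and 9.28% of all genes were induced. Leaving out 1 heart, with a looser low-count filter, gave 0 to 4 at D21, the 4 including Cxcl2 and Cxcl3, 6 at D15 and 0 at D10. Of all genes, 0.0% to 10.9% were then induced at D21, 17.6% to 19.1% at D15 and 0.0% at D10. Without a filter and in the fit of all 24 hearts, Cxcl2 and Cxcl3 could be tested at D21 and were called, at log2 fold changes of 4.10 and 6.73 and of 4.11 and 6.75, but no D21 control heart had more than 4 reads of Cxcl2 or 1 of Cxcl3, and in the fit of all hearts, as without EAM replicate 3, both passed the filter only through EAM hearts, so these calls support nothing by themselves.

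For the difference between D15 and D10, with 1 member called, the edgeR likelihood ratio test gave 2, limma-voom 0 and leaving out 1 heart 0 to 5. Of all genes, these called 16.4%, 12.4% and 7.07% to 22.3%, against 12.7% in the main fit. For the difference between D21 and D15, with 0 called, leaving out 1 heart gave 0 to 1, where 1.43% to 9.49% of all genes were called. There the estimate for Cxcr1, -2.01 in all hearts, ranged from -2.81 to 1.12, the latter without the D21 control heart of replicate 1, which held all 4 reads of that group. Between D15 and D10 controls, with 0 called, DESeq2 gave 2, the likelihood ratio test 1, no filter 1 and leaving out 1 heart 0 to 2. Of all genes, these called 0.921%, 1.18%, 0.294% and 0.0% to 0.614%. Between D21 and D10 controls, with 0 called, the same settings gave 2, 3, 2 and 0 to 2. Of all genes, they called 1.67%, 1.92%, 0.85% and 0.0065% to 1.19% there. For ligand ratios, 7 of 10 comparisons passed with 0.5 or 1 read added, and 0 with CPM + 1, where 5 rather than 7 reached the smallest possible p and the lowest adjusted p was 0.0571. With only ligands of at least 10 reads in every heart of the day, 2 of 3 passed. Leaving out a heart was not run for the ratios, since 3 against 4 hearts cannot give an exact permutation p below 0.0571. The replicate block changed no call of a member other than that of Cxcr2 at D21. Over all comparisons, 697 of 738 single estimates of members kept direction and call, 9 lost the call, 31 gained it and 1 reversed. Where no cause is named, the cause was not tested.

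Depth limits Cxcl2, Cxcl3 and Cxcr1 most, since their control hearts hold 0 to 19 reads, and their fitted fold changes move with the count added in the fit.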
